A study of Drosophila melanogaster with 6 samples.

Results

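The odorant-binding protein genes of *Drosophila melanogaster* were examined in RNA of the adult brain. Members were taken by symbol, as every gene of the count table whose name starts with Obp followed by a digit, which gave 51 of 16725 genes. The rule uses no measured value, and it leaves out lush, a member of the same family with a symbol of its own. Brains of 5-day-old Canton-S flies, a standard wild-type strain, were dissected in pools of about 15 brains per sample. The labels do not give the sex of the flies. The total RNA was split, and rRNA was removed with custom DNA probes and RNase H (2 libraries), or polyA RNA was enriched (2 libraries). Per the methods, more total RNA was put into rRNA depletion than into polyA enrichment, so the input differs with the label. The libraries labelled rRNA-depleted (depleted-label) are set against the polyA-enriched ones (polyA-label), both from wild-type brains with no treatment, and each label has the numbers 1 and 2.

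Odorant-binding proteins are small secreted proteins that bind hydrophobic molecules. In the antenna and the taste organs they are made by the support cells around the sensory neurons and are released into the fluid of the sensillum, where they carry odours, pheromones or tastants. The brain itself holds no sensilla, and a few members, such as Obp44a, are known to be made by other cells. The comparison asks which members were counted in brain RNA and whether the label changed their level.

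The total count was 14295047 and 12142737 in the depleted-label libraries 1 and 2, and 13821678 and 11838449 in the polyA-label libraries 1 and 2. Levels are given as CPM, the count scaled to these totals as parts of 1000000. A library needs 3 counts for a gene to be shown, a floor of 0.210 to 0.253 CPM. The first principal component of the libraries followed the number and held 51.2% of the variance, and the second followed the label and held 46.3%. The non-polyadenylated snRNA:7SK followed the number too, with 105 and 12378 counts under the depleted label, against 121 and 14595 under the polyA label, so the libraries are called by their labels. Each label ratio is therefore also given within a number, where it sets 1 library against 1. Its 95% interval covers counting error only. The neuron markers, which define brain tissue, were present in every library, with 7 of 7 tested and a summed level of 10113 and 10442 CPM in the depleted-label libraries, against 8054 and 8645 CPM in the polyA-label libraries.

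Of the 51 members, 39 had at least 1 count in some library, 23 reached 10 counts in at least 1 library, and 9 reached 10 counts in all 4. At a minimum of 10 counts, 12 and 10 members were found in the depleted-label libraries 1 and 2, against 22 and 18 in the polyA-label libraries 1 and 2. At 100 counts the numbers were 3 and 2, against 7 and 6. After the libraries were drawn down at random to the smallest total, 10.8 and 9.9 members on average held at least 10 counts in the depleted-label libraries, against 21.2 and 18 in the polyA-label libraries. At a minimum of 1 count the labels were close, with 29 members in each depleted-label library, against 31 and 28 in the polyA-label libraries. The labels thus parted in how many members reached 10 counts. The share of all genes that reached 10 counts in each library is not given here. Whether the labels part alike over all genes was therefore not tested.

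Members of the family made up 0.104% (95% Wilson interval 0.103 to 0.106%) and 0.0473% (0.0461 to 0.0485%) of all counts in the depleted-label libraries 1 and 2. They made up 0.206% (0.204 to 0.209%) and 0.106% (0.104 to 0.108%) in the polyA-label libraries 1 and 2. Obp44a alone held 95.6% and 90.4% of the family's counts in the depleted-label libraries, against 78.0% and 74.6% in the polyA-label libraries. Without it, the share was 0.00460% and 0.00455% in the depleted-label libraries, against 0.0454% and 0.0269% in the polyA-label libraries. The remaining members together were therefore 9.86-fold lower in the depleted-label library within number 1, and 5.93-fold lower within number 2. With Obp44a counted, the family was 1.97-fold lower within number 1 and 2.25-fold lower within number 2.

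**Figure D1:**
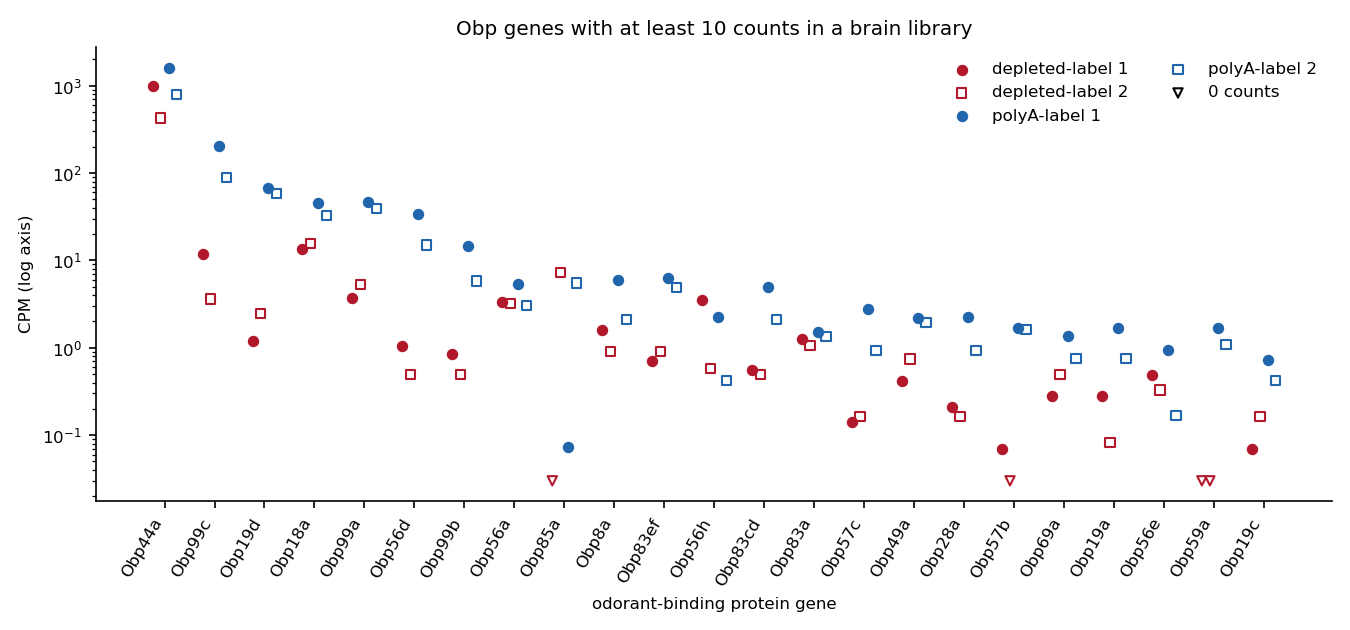
Level of each of the 23 odorant-binding protein genes with at least 10 counts in a brain library, in CPM on a log axis, with 1 point per library and genes ordered by mean level per coding length. Triangles mark 0 counts, and for Obp99c, Obp19d, Obp99a, Obp56d and Obp99b both depleted-label libraries lie below both polyA-label ones.

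Obp44a encodes a secreted carrier that brain glia are known to make, and it lies on 2R from 8134170 to 8135315 on the minus strand of dm6. It had 14273 and 5189 counts in the depleted-label libraries 1 and 2, against 22227 and 9378 in the polyA-label libraries 1 and 2. As levels these were 998 and 427 CPM, against 1608 and 792 CPM, so the labels overlapped: depleted-label 1 was above polyA-label 2. Per kb of coding length it was the highest member in every library, at 2327 and 996 CPM per kb in the depleted-label libraries, against 3749 and 1847 CPM per kb in the polyA-label libraries. The next highest, Obp99c, averaged 168.9 CPM per kb over the 4 libraries, where Obp44a averaged 2229.7. Within number 1 the log2 ratio of the depleted-label to the polyA-label library was -0.69 (-0.72 to -0.66), and within number 2 it was -0.89 (-0.94 to -0.84).

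In edgeR's quasi-likelihood test of the labels the log2 fold change of Obp44a was -0.71 (standard error 0.55, n = 2 libraries per label, Benjamini-Hochberg adjusted p = 1.00). Blocking on the replicate number gave -0.73 (standard error 0.10, adjusted p = 4.4e-09 in edgeR), which passed the p threshold of 0.05 but not the fold threshold of 1 on the log2 scale used for calls. Of 6 glial markers tested, 0 were called in either direction with the block, where 12.1% of all genes tested were called lower and 0.349% higher. Their log2 fold changes were mixed: -0.84 for wrapper, -0.45 for moody, -0.05 for repo, 0.05 for Gs2, 0.32 for Eaat1 and 0.56 for alrm. Like Obp44a, wrapper (adjusted p = 2.35e-09 in edgeR with the block) and moody (adjusted p = 0.0019) passed the p threshold but not the fold threshold. In the higher direction, Eaat1 (adjusted p = 0.0080) and alrm (adjusted p = 1.71e-06) did the same in that fit. Gat, also on the list, was not found by symbol. The end of Obp44a overlaps exons of Pabp2 on the opposite strand. Pabp2 had 555 and 610 counts in the depleted-label libraries, against 672 and 627 in the polyA-label libraries, far below the counts of Obp44a.

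After Obp44a, the members with the highest levels were also lower under the depleted label, by more than Obp44a was. Obp99a, Obp99b and Obp99c lie within one stretch of 3R. Obp99c, from 29685736 to 29689311, had 171 and 44 counts in the depleted-label libraries, against 2784 and 1054 in the polyA-label libraries. The labels did not overlap, and Obp99c was 16.8-fold lower within number 1 and 24.6-fold lower within number 2. In CPM it averaged 7.79 ± 5.90 in the depleted-label libraries, against 145 ± 79.5 in the polyA-label libraries (SD, n = 2 each). Its log2 fold change was -4.18 (standard error 0.76, adjusted p = 0.11 in edgeR), or -4.22 (standard error 0.15, adjusted p = 5.02e-35) with the replicate block. Its exons overlap those of Gycalpha99B on the opposite strand, a gene with 6642 and 3355 counts, against 4932 and 2923. In all, 14 of the 51 members overlap an exon of another gene.

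Obp99a, from 29671657 to 29672334, had 53 and 64 counts in the depleted-label libraries, against 642 and 468 in the polyA-label libraries. Both libraries of the first label were well below both of the second, by 12.5-fold within number 1 and 7.50-fold within number 2. Its log2 fold change was -3.20 (standard error 0.31), with an adjusted p of 0.061 from edgeR's test. This was the smallest over all genes, and 61 genes held it, Obp19d among them. Obp99b, from 29716254 to 29716896, had 12 and 6 counts in the depleted-label libraries, against 203 and 69 in the polyA-label libraries. Obp99d, the fourth gene of the stretch, had 0 and 2 counts, against 3 and 0, so its level was at the floor under both labels while its neighbours had 69 to 2784 counts in the polyA-label libraries.

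Obp19d, known as a pheromone-binding protein related gene of the antenna and taste organs, is on X from 20419613 to 20420979. It had 17 and 30 counts in the depleted-label libraries, against 940 and 687 in the polyA-label libraries. It was 57.2-fold lower within number 1, the largest difference of any member with counts in all 4 libraries, and 23.5-fold lower within number 2. The log2 fold change was -5.04 (standard error 0.47, adjusted p = 0.061), or -5.08 (standard error 0.20, adjusted p = 2.54e-32) with the replicate block, both from edgeR. Its neighbours on X were far lower in level and were not tested. Obp19a had 4 and 1 counts in the depleted-label libraries, against 23 and 9 in the polyA-label libraries. Obp19c had 1 and 2 counts, against 10 and 5, and Obp19b had 0 in all 4 libraries.

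Obp56d had 15 and 6 counts in the depleted-label libraries, against 467 and 178 in the polyA-label libraries. That is 32.2-fold lower within number 1 and 30.4-fold lower within number 2. Its log2 fold change was -4.91 (standard error 0.64, adjusted p = 0.067 from edgeR), or -4.93 (standard error 0.27, adjusted p = 7.21e-25) with the replicate block. Obp18a, on X, showed a smaller difference at a similar level, with 191 and 188 counts in the depleted-label libraries, against 621 and 385 in the polyA-label libraries. It was 3.36-fold lower within number 1 and 2.10-fold lower within number 2, and its labels did not overlap. The counting intervals of the log2 ratio, -1.99 to -1.51 and -1.33 to -0.82, lie apart from those of Obp19d, -6.62 to -5.15 and -5.13 to -4.03. Members of the family thus did not share one ratio between the labels.

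**Figure D2:**
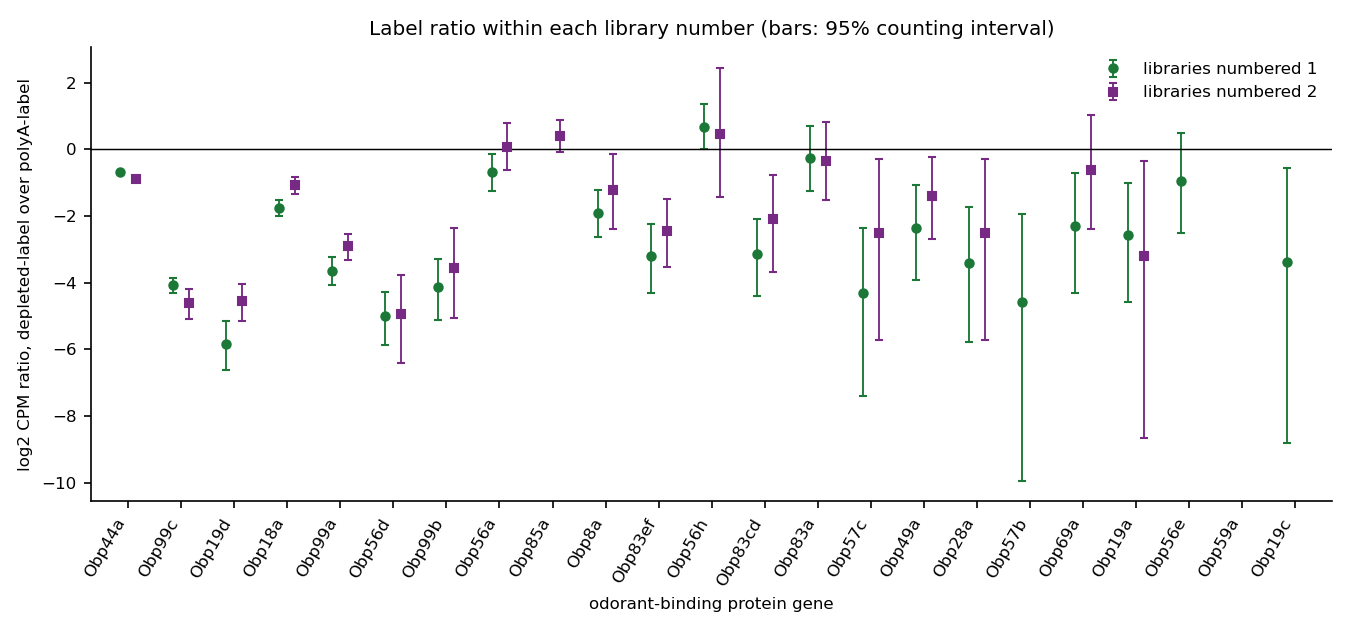
Log2 ratio of CPM in the depleted-label library to the polyA-label library, within number 1 (circles) and within number 2 (squares), for the 23 named members in the order of their level. Bars are 95% counting intervals, a point is left out where a library had 0 counts or the pair fewer than 10, and the points of Obp99c lie at -4.07 and -4.62 while those of Obp44a lie at -0.69 and -0.89.

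Over the whole family, 22 of the 39 members with a count had both depleted-label libraries below both polyA-label ones, and 0 had both above. Among all 13776 genes with a count, 21.7% were below in this way and 7.99% above. Counted by pair, 23 of the 39 were lower under the depleted label in number 1 and in number 2, where 35.6% of all genes were. Obp56h alone was higher in both.

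Differences between the labels were tested with edgeR over the 9737 genes that reached 10 counts in 2 or more libraries, and called at an adjusted p under 0.05 and a log2 fold change beyond 1. Of the members, 19 passed this minimum. The labelled comparison called 0 members and 0 genes (a background of 0% higher and 0% lower). In the same edgeR test, 13 of the 19 members and 1103 of the 9737 genes had an unadjusted p under 0.05. DESeq2, without the block, called 7 members lower (Obp18a, Obp19d, Obp56d, Obp83ef, Obp99a, Obp99b and Obp99c) and 0 higher, against a background of 5.61% of genes lower and 0.0205% higher. Per the methods the total RNA was split between the library types, so the replicate number was also used as a block. That same-numbered libraries share an extraction is inferred from their names. In that fit edgeR called 14 members lower and 0 higher, against a background of 12.1% of genes lower and 0.349% higher.

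Of the 19 members that passed, 6 did so through the polyA-label libraries only (Obp28a, Obp49a, Obp57b, Obp57c, Obp59a and Obp83cd). A gene that passes in this way has to differ between the labels. All 6 are among the 14, and among the 13 members with an unadjusted p under 0.05 from edgeR without the block. Their number adds nothing to either count. Of the 1180 genes called lower over the whole table, 344 passed in the same way. The other 8 called with the block were Obp8a, Obp18a, Obp19d, Obp56d, Obp83ef, Obp99a, Obp99b and Obp99c. The 5 members tested and not called were Obp44a, Obp56a, Obp56h, Obp83a and Obp85a. Without the block, the p-values measure the spread between libraries, and 2 against 2 libraries leave little of it to estimate. With the block, they measure how far the label ratios within the 2 numbers disagree, with a dispersion partly shared across genes. That leaves still less to estimate, and a small p with the block rests on 2 same-numbered pairs of libraries.

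Several other members known from the taste and smell organs were at low counts. Obp49a, which the gustatory sensilla use in the response to bitter compounds, had 6 and 9 counts in the depleted-label libraries, against 30 and 23 in the polyA-label libraries. It reached 10 counts only in the polyA-label libraries, so no p is given for it. Obp59a, known for its part in humidity sensing, had 0 and 0 counts, against 23 and 13. With the floor of 3 counts in place of 0 it was 7.93-fold lower within number 1 and 4.44-fold lower within number 2. These folds leave out the counting error of the polyA-label counts. With it, the counting interval of its log2 ratio reached up to -2.57 within number 1 and -1.64 within number 2. Its fitted log2 fold change depends on the prior count and is not given.

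Obp28a, an antennal member on 2L, had 3 and 2 counts in the depleted-label libraries, against 31 and 11 in the polyA-label libraries. Obp57b and Obp57c, of the group next to the leg taste genes Obp57d and Obp57e, had the highest counts of that stretch. Obp57c had 2 and 2 counts, against 38 and 11. Obp57b had 1 and 0, against 23 and 19. With the floor of 3 counts in place of 0 it was 6.50-fold lower within number 2. The counting interval of its log2 ratio there reached up to -2.26. Obp57a had 0 and 0 counts, against 8 and 2, Obp57e had 1 and 2, against 0 and 3, and Obp57d had 0 in all 4 libraries. Obp57b and Obp57c reached 10 counts only under the polyA label, and no other member of the stretch reached 10.

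Obp83a and Obp83b are neighbours on 3R that code for the closely related antennal proteins OS-F and OS-E of the pheromone-sensing sensilla. Obp83a had 18 and 13 counts in the depleted-label libraries, against 21 and 16 in the polyA-label libraries. Its labels did not overlap, but the log2 ratio was -0.27 (-1.26 to 0.71) within number 1 and -0.34 (-1.51 to 0.81) within number 2, so no difference was detectable at this depth. Obp83b had 0 and 1 counts, against 8 and 2, and was not tested. Reads that match both genes could have been split between them or left out, since the treatment of such reads is not given in the sources used here.

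Obp83cd and Obp83ef, which lie on opposite strands with overlapping exons, each code for a double-domain member of the family. Obp83ef had 10 and 11 counts in the depleted-label libraries, against 88 and 58 in the polyA-label libraries, and its log2 fold change with the replicate block was -2.76 (standard error 0.36, adjusted p = 2.01e-09 from edgeR). Obp83cd had 8 and 6, against 68 and 25. Without a stated strand setting the reads of this pair cannot be told apart where they overlap. Obp83g, next to them, had 4 and 3 counts, against 7 and 5. Obp69a, an antennal member on 3L whose exons overlap CG32104 on the opposite strand, had 4 and 6, against 19 and 9. Obp84a, a gene of the coeloconic sensilla of the antenna, had 0 and 0, against 7 and 4.

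Several members are known as seminal fluid proteins of the male. Obp8a, the most abundant of these here, had 23 and 11 counts in the depleted-label libraries, against 83 and 25 in the polyA-label libraries. It was 3.73-fold lower within number 1 and 2.33-fold lower within number 2, and its log2 fold change with the replicate block was -1.62 (standard error 0.36, adjusted p = 1.69e-04 from edgeR). Obp22a, Obp51a, Obp56f, Obp56g and Obp56i had at most 2 counts in any library. Obp56e had 7 and 4 counts, against 13 and 2, with the labels overlapping.

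Obp56a and Obp56h did not follow their neighbour Obp56d on 2R. Obp56a had 48 and 39 counts in the depleted-label libraries, against 75 and 36 in the polyA-label libraries. Its log2 ratio was -0.69 (-1.25 to -0.15) within number 1 and 0.08 (-0.61 to 0.77) within number 2. Obp56h, which is known for a role in male mating behaviour, had 51 and 7 counts, against 31 and 5. Its log2 ratio was 0.67 within number 1, with an interval from just below 0 to 1.36, and 0.45 (-1.42 to 2.45) within number 2. With the replicate block its log2 fold change was 0.66 (standard error 0.41, adjusted p = 0.24 from edgeR), so the label difference was within the error.

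Obp85a was separated by the library number and not by the label. It had 88 counts in depleted-label 2 and 0 in depleted-label 1, and 65 counts in polyA-label 2 and 1 in polyA-label 1. With the floor of 3 counts in place of 0 it was 34.5-fold higher in number 2 than in number 1 under the depleted label. Counting error allowed a ratio down to 27.5 there. The ratio under the polyA label was 75.9 (13.1 to 3043 by counting error). Between the numbers it was the only member called in edgeR's test without the label as a block (log2 fold change 7.22, standard error 0.94, adjusted p = 0.034), where 5.91% of genes were called higher and 2.42% lower. None of the 4 fits without 1 library called it, at log2 fold changes of 6.36 to 9.34. The gene, on 3R from 8419822 to 8420597, lies within an intron of CG45263 on the same strand. CG45263 had 7975 counts in depleted-label 2 and 5799 in depleted-label 1, and 7638 in polyA-label 2 and 4571 in polyA-label 1. Whether reads of its unspliced RNA were counted on Obp85a was not tested.

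Of the other members, several were lower in number 2. With the label as a block, edgeR called 7 members lower and 1 higher in the libraries numbered 2, where 5.42% of genes were called lower and 10.5% higher. The 7 were Obp8a, Obp44a, Obp56d, Obp56h, Obp57c, Obp99b and Obp99c. Obp44a was 2.34-fold lower in number 2 than in number 1 under the depleted label and 2.03-fold lower under the polyA label (log2 fold change of number 2 over 1 of -1.04, standard error 0.10). Obp56h showed a larger difference at few counts, 6.19-fold lower in number 2 under the depleted label and 5.31-fold lower under the polyA label (log2 fold change -2.43, standard error 0.46). Obp19d had a log2 ratio of number 2 over 1 of 1.05 (0.15 to 2.01) under the depleted label and -0.23 (-0.37 to -0.09) under the polyA label. For Obp99a the ratio was 0.51 (-0.04 to 1.06) and -0.23 (-0.41 to -0.06). The ratios of both genes had opposite signs under the labels. The intervals of Obp19d lie clear of 0 on both sides, while that of Obp99a under the depleted label includes 0, and 1 library per point leaves no replicate test.

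A total of 12 members had 0 counts in all 4 libraries: Obp19b, Obp46a, Obp50a, Obp50b, Obp50c, Obp50d, Obp56b, Obp57d, Obp58c, Obp58d, Obp73a and Obp93a. Each count of 0 allows a level of up to 0.253 CPM in the shallowest library, where reads of the gene could be assigned to it. Obp57d shares its span and strand with Cpr57A, and Obp73a and Obp93a overlap exons of Ogdh and CG5793. The handling of reads on overlapping genes is not given, so a count of 0 sets no firm bound for these members. A further 16 members had counts but never more than 9 in a library. Obp50b and Obp50c share their annotated span, so their reads could not have been told apart. Of the remaining members of these stretches, Obp50e had 3 and 0 counts in the depleted-label libraries, against 1 and 0 in the polyA-label libraries. Obp58b had 1 and 0, against 0 and 0. Obp47a, Obp47b and Obp56c had at most 1 count in any library.

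Few of the receptors that work beside these proteins reached the minimum, and 1 was called. Of 180 odorant, gustatory and ionotropic receptor genes listed, 24 were tested, and with the replicate block 0 were called lower and 1 higher. The shares over all genes tested were 12.1% lower and 0.349% higher. The called gene was Gr77a, named here after its values were seen, with 29 and 24 counts in the depleted-label libraries, against 14 and 9 in the polyA-label libraries. Orco, the co-receptor that most odorant receptors need to function, had 38 and 19 counts, against 33 and 23 (log2 fold change with the replicate block 0.01, standard error 0.35). The median log2 fold change with the replicate block was 0.04 for odorant, 0.18 for gustatory and 0.11 for ionotropic receptors, against 0.04 for all genes tested. Whether the receptors and the odorant-binding protein genes differ in this was not tested.

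Other soluble carriers and membrane partners fell into lower and uncalled genes. Of 28 such genes listed, 9 were tested, and with the replicate block 6 were called lower and 0 higher. Over all genes tested, 12.1% were called lower and 0.349% higher in that fit. Of the 6, 4 passed the minimum through the polyA-label libraries only (a10, to, Snmp1 and CheB42a), so the minimum set their direction, and PebIII and Phk-3 were the other 2. PebIII, a chemosensory protein, had 235 and 100 counts in the depleted-label libraries, against 1925 and 812 in the polyA-label libraries. Phk-3, of the same family, had 11 and 7, against 103 and 54. The 3 tested and not called were CheB42b, with 5 and 49 counts, against 1 and 44, CheB42c, with 49 and 82, against 42 and 57, and Snmp2, with 99 and 74, against 177 and 114. Their log2 fold changes with the block were 0.38, 0.41 and -0.73. The antennal a10 had 1 and 2 counts, against 42 and 17. The gene takeout (to), a carrier made in the fat body of the head and in the antenna, had 1 and 2 counts, against 30 and 17. Snmp1, a membrane protein of pheromone-sensing neurons, had 4 and 4, against 13 and 15. lush, the family member that binds a male pheromone, had 2 and 0, against 6 and 0, and was not tested.

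Most markers of head tissue outside the brain were lower under the depleted label too. With the replicate block, 12.1% of all genes tested were called lower. Of the fat body markers, 7 of 9 on the list were found by symbol, and 7 of 7 were called lower with the replicate block, at summed levels of 715 and 1311 CPM in the depleted-label libraries, against 12394 and 9943 CPM in the polyA-label libraries. Yp1, a yolk protein gene of the female fat body, had 5280 and 8610 counts, against 79752 and 51816. Of 14 eye markers 12 were called lower, at summed levels of 1455 and 1883 CPM over all 14, against 4527 and 3992 CPM. The eye markers not called, norpA and rdgA, had log2 fold changes of 0.01 and -0.04 with the block. They held much of the depleted-label sums, with 568 and 909 CPM for norpA, against 633 and 861 CPM. For rdgA the levels were 456 and 668 CPM, against 512 and 677 CPM. Of 8 muscle markers tested 7 were called lower, at summed levels of 29.2 and 60.2 CPM, against 248 and 337 CPM, and of 5 hemocyte markers tested 2 were, at 455 and 471 CPM, against 590 and 793 CPM. Of the fat body and of the muscle markers called, 2 each passed the minimum through the polyA-label libraries only.

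Markers of the olfactory and taste organs were at low levels. They summed to 8.18 and 4.78 CPM over 17 genes in the depleted-label libraries, against 11.1 and 7.18 CPM in the polyA-label libraries, and 5 were tested. The 2 called lower with the block, a10 and Snmp1, both passed through the polyA-label libraries only. The highest counts on the list, apart from a10, were those of Orco, and Ir76b had 20 and 13 counts, against 16 and 8. Or67d had 18 and 3, against 11 and 5, and Or42b had 11 and 5, against 1 and 0. Or47b had 0 counts in every library, and Or22a, nompA and ppk23 had at most 4. This list shares lush, a5, a10 and Snmp1 with the carriers. Of the glial markers 0 of 6 were called, and of the neuron markers 0 of 7. Over all genes tested, 12.1% were called lower and 0.349% higher with the block. Within a library of pooled tissue, as between the numbers, fewer cells of a type and less RNA per cell cannot be told apart. Between the labels the total RNA was split, per the methods, and the part of these tissues in the levels of the members was not tested.

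**Figure D3:**
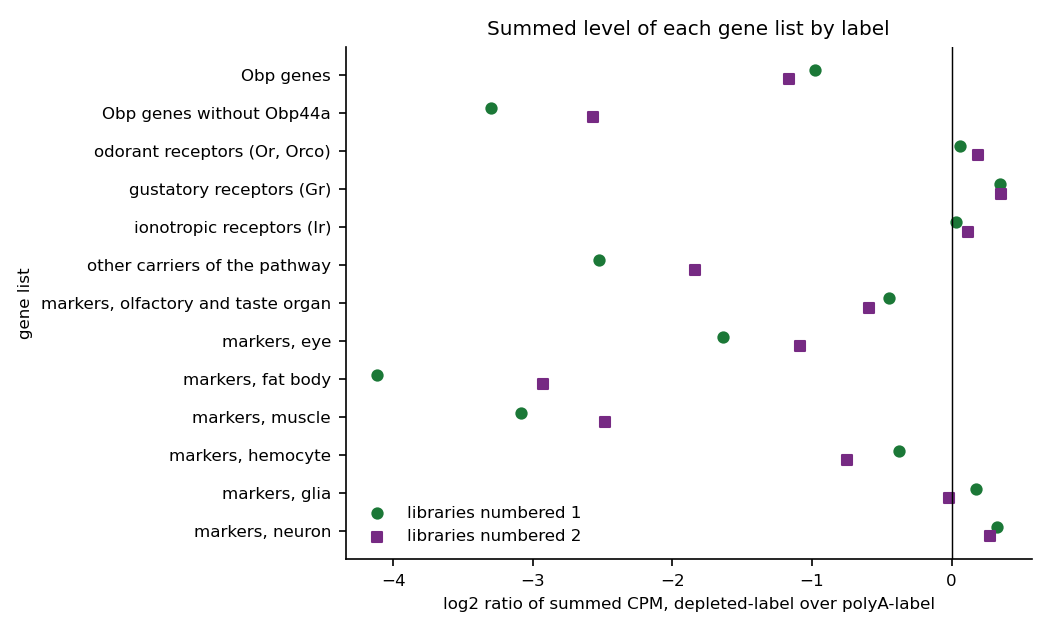
Log2 ratio of summed CPM in the depleted-label library to the polyA-label library for each gene list, within number 1 (circles) and number 2 (squares), with no error since each point sets 1 library against 1. The odorant-binding protein genes without Obp44a lie at -3.30 and -2.57, the fat body markers at -4.12 and -2.92, and the odorant receptors at 0.06 and 0.19.

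The members have short transcripts, with a median of 643 bp for the longest annotated transcript and a range of 398 to 1648 bp, against a median of 2047 bp over the genes tested. The 521 other protein-coding genes with transcripts of up to 700 bp had a median log2 fold change of -0.04 with the replicate block, a 10th percentile of -3.21, and 19.0% called lower. Above 700 and up to 1000 bp, 770 other genes had a median of -0.04, a 10th percentile of -1.50, and 12.9% called lower. Above 4000 bp, where no member lies, 1844 genes had a median of 0.16, a 10th percentile of -0.57, and 6.67% called lower. Between these ranges, 14.7% of 2958 genes above 1000 and up to 2000 bp were called lower. Above 2000 and up to 4000 bp, 12.5% of 3022 genes were. The share called lower was thus largest among the shortest transcripts and smallest among the longest, without a steady fall between. Of the members tested, 9 lie in the first range, with 6 called lower, and 7 in the second, with 6 called lower. The other 3 (Obp44a, Obp19d and Obp59a) lie above 1000 and up to 2000 bp, with 2 called lower (Obp19d and Obp59a). Of these called members, 2 in the first range (Obp28a and Obp57c) and 3 in the second (Obp49a, Obp57b and Obp83cd) passed the minimum through the polyA-label libraries only. Obp59a did so too. The part of transcript length in the values of the members was not tested.

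**Figure D4:**
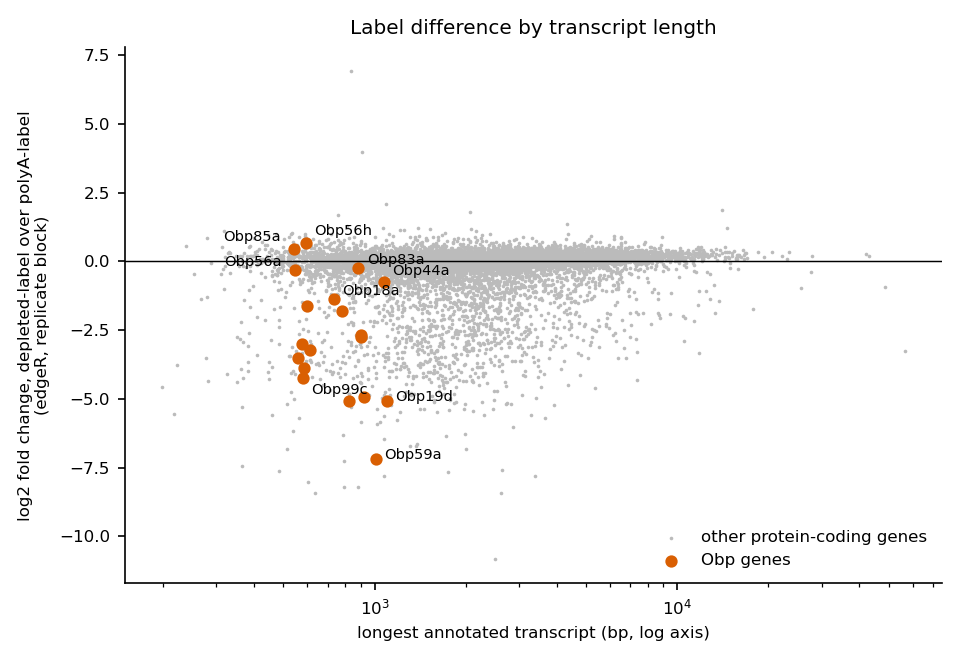
Log2 fold change of depleted-label over polyA-label libraries from edgeR with the replicate block, against the length of the longest annotated transcript on a log axis, for protein-coding genes tested (grey) and the 19 odorant-binding protein genes tested (orange). Most grey points lie near 0, with fewer low values at the longest transcripts, and the orange points reach from 0.66 for Obp56h to -7.18 for Obp59a, a fitted value that depends on the prior count because both depleted-label libraries had 0 counts.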

How the data were processed

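Per the authors' methods, reads were trimmed (Trimmomatic), mapped to dm6 (STAR) and summed per gene (featureCounts), and the deposited values are raw counts, neither normalized nor pooled. The annotation, the strand setting and the handling of multiply mapping reads are not given in the sources used here. The table had 16729 rows, of which 4 without usable counts were left out, and 0 columns had no sample. Libraries of S2 cells were not used here. Total counts ran from 11838449 to 14295047 per library. Wilson intervals, exact binomial intervals of ratios and floors of 3 counts cover counting error only. A fold set against a floor leaves out the counting error of the other library.

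Tests used edgeR 4.0.16 in R 4.3.3 (quasi-likelihood, TMM, 10 or more counts in 2 or more libraries) with Benjamini-Hochberg adjustment over all genes tested. A standard error is the size of the log2 fold change over the square root of the F value. DESeq2 1.42.0, library totals, other filters and thresholds, the replicate block and leaving out each library were alternatives. The methods state that total RNA was split, but not which libraries shared an extraction. Pairing by number was therefore inferred from the library names, and deviations of same-numbered libraries correlated at r = 0.902 across genes. On simulated counts for the label comparison, edgeR recovered 100% of 200 genes changed by 2 on the log2 scale, among 9680 genes. The simulated libraries had no difference between the numbers, and only genes averaging at least 100 counts were changed. The recovery therefore checks the code and does not give the power of the test on these data. Positions and lengths came from the Ensembl annotation of BDGP6, which has dm6 coordinates, and all 51 members matched by symbol. Other steps used Python 3.11.15. Members with at least 10 counts in a library were named with their counts. Members, lists and tests were chosen with earlier results of these data known. No sequences were used here.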

Additional observations from a re-analysis of the deposited data

How the results depend on the processing

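The labelled comparison called 0 members and 0 genes in edgeR, and the replicate block was the alternative that changed this most. It called 14 members lower, with 34 genes higher and 1180 lower in all, and with library totals it called 14 members, 30 genes higher and 1246 lower. DESeq2 called 7 members lower, 2 genes higher and 546 lower, and with the block 10 members lower, 7 genes higher and 845 lower. Both fits of the block with another tool or scaling were chosen after seeing the data. All 6 members that passed the minimum through the polyA-label libraries only are among the 14 under either scaling. Of these, Obp57b, Obp59a and Obp83cd are among the 10. Members that passed in this way add nothing to these counts. Without a filter, 3 of 39 members with a count (Obp19d, Obp56d and Obp99a) and 255 of 13776 genes were lower. With at least 10 counts in all 4 libraries, 3 of 9 members (Obp19d, Obp83ef and Obp99a) and 153 genes were lower. The number of genes tested under that filter is not given here, so no share stands beside it. Leaving out 1 library gave 0 to 5 members and 0 to 208 genes lower: Obp19d without polyA-label 1, and that gene with Obp56d, Obp99a, Obp99b and Obp99c without polyA-label 2. In these fits the lone library is assumed to vary like the others, and with the block no residual degree of freedom is left. DESeq2 size factors, library totals, a threshold of 0.01 and no fold threshold left the count at 0 without the block.

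Without 1 library, the log2 fold change of Obp56a ran from -0.58 to 0.14 (positive without polyA-label 1), that of Obp56h from -1.08 (without depleted-label 1) to 2.30, and that of Obp85a from -8.23 (without depleted-label 2) to 5.59, with -0.59 without polyA-label 1. The cause was not tested. Between the numbers, 575 genes were higher and 236 lower. With the label as a block they were 1026 and 528 (7 members lower), and DESeq2 called 381 lower, with 1 member (Obp44a). With 10 counts in all libraries 380 were higher and 0 members, since Obp85a was not tested. Without 1 library there were 0 to 80 genes higher, 0 to 4 lower and 0 members.

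Members found depended on the minimum: 29, 29 and 28 at 1 count in depleted-label 1 and 2 and polyA-label 2, and 3, 2, 7 and 6 at 100 counts. Shares without Obp44a were 0.00460%, 0.00455%, 0.0454% and 0.0269%. Depth limits statements on the 28 members under 10 counts.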
